A study of Mus musculus with 4 samples.

Results

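The genes described here are Myc, Mycn and 36 genes of ribosome biogenesis, 38 in all, chosen by name from a fixed list. A gene was matched where its symbol stood in the gene column of the deposited table, and the row with the higher mean level was kept. This gave 37 genes of the 27542 rows of the table, and all 37 were among the 15477 rows that the authors tested. The level of Noc2l, the remaining gene of the list, was not analysed here.

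The RNA came from the line TBV2, embryonic stem (ES) cells of the mouse. The control group was 1 library of a culture labelled N.T. The knockdown (KD) group was 3 libraries, each from a separate clone in which T-UCstem1, a long noncoding RNA with an ultraconserved element, had been lowered. Both groups were cultured in serum with LIF, the cytokine that keeps mouse ES cells undifferentiated, and feeder cells and a high density are named in the series design. The agent of the knockdown is not named in the labels, and whether the control is 1 clone is not stated. T-UCstem1 itself was not analysed here. The authors combined the KD clones into 1 FPKM per gene, a count of sequenced fragments divided by transcript length and library depth, and gave 1 for the control. There are therefore no replicate values, and no SD accompanies any level. Folds are log2((KD FPKM + 1)/(control FPKM + 1)), where a value above 0 means a higher level in the KD.

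Ribosomes are built in the nucleolus. RNA polymerase I transcribes the long precursor of ribosomal RNA, small nucleolar ribonucleoproteins (snoRNPs) modify it, and large sets of assembly factors cut, fold and package it into the small and the large subunit. Myc and Mycn are transcription factors that bind DNA with Max at E-box sequences, and many genes of ribosome production are among their known targets. ES cells divide rapidly and carry prominent nucleoli, and Myc and Mycn both have known roles in their self-renewal. The series title names proliferation and self-renewal as its subject, and the comparison asks whether the genes that supply ribosomes differed when T-UCstem1 was lowered.

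Most of these genes stood slightly higher in the KD, and the authors' test called none of them. Of the 37 genes 30 had a fold above 0 and 7 below, where 51.4% of the 6718 tested rows with a mean of at least 10 FPKM lay above 0. Other scalings of the same values put 28 to 32 members above 0, since Ubtf, Ddx18, Dkc1 and Utp15 lie so close to 0 that their sign changes with the scaling. The members' median fold was 0.15 with quartiles of 0.034 and 0.28. The same tested rows had a median of 0.0078 with quartiles of -0.16 and 0.17. Over all tested rows 50.9% lay above 0. None of the 37 was called in the authors' deposited table, against 1.15% of all tested rows and 1.3% of those at 10 FPKM or more. At q under 0.1 there was also none, against 1.71% of tested rows. None reached an unadjusted Cuffdiff p under 0.05 in the authors' deposited table either, against 8.88% of tested rows and 7.52% of those at 10 FPKM or more. The lowest p of a member was 0.0531, that of Polr1a, and the lowest q was 0.579. No other test was run, because each condition has a single value.

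The shift was narrow. Folds above 0.3 were found for 9 members (24.3%), against 13.3% of tested rows at 10 FPKM or more. Folds below -0.3 were found for 1 member (2.70%), against 12.8% of those rows. Placed among the folds of those rows, the members ran from percentile 9.71 (Utp20) to percentile 96.5 (Myc).

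**Figure D1:**
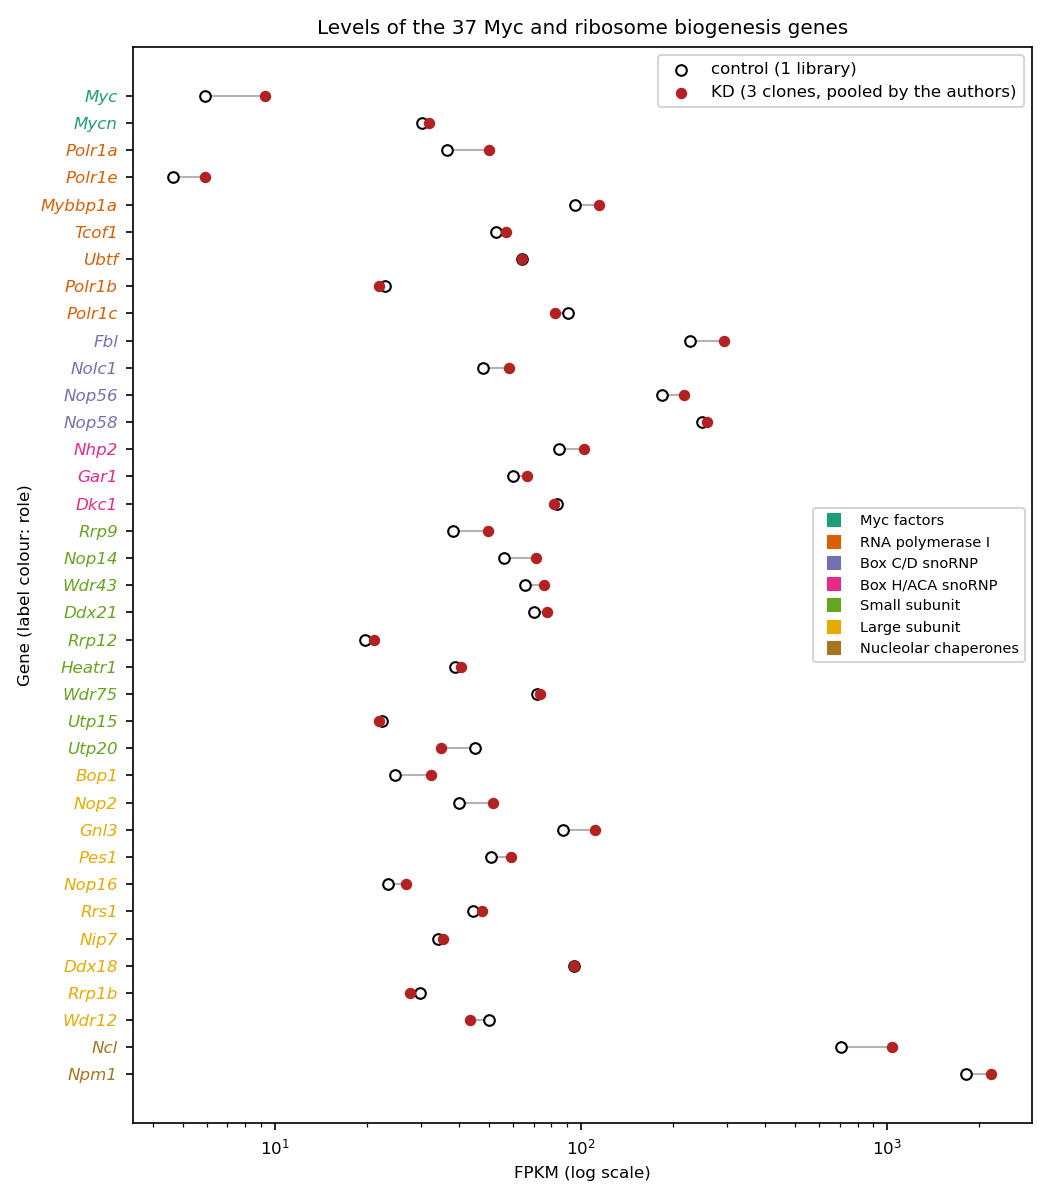
FPKM (log scale) of each of the 37 genes in the control library (open circles) and in the KD clones as pooled by the authors (filled circles), with label colours for the roles. The levels run from 4.67 FPKM for Polr1e to 1810.0 FPKM for Npm1 in the control, and the filled circle lies to the right of the open one for 30 of 37 genes (28 to 32 under other scalings).

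Myc itself had the highest fold of all members on the scale used here. With 5 in place of 1 added to each FPKM its fold was 0.39, below those of Ncl (0.55) and Polr1a (0.41). Myc, the transcription factor that gives the family its name (chromosome 15, 61816895 to 61821916 in mm9), was at 9.27 FPKM in the KD against 5.92 FPKM for the control. Its fold was 0.57, and the authors' deposited table gives a p of 0.109 and a q of 0.770. Mycn, its relative, was the more abundant of the pair per length, at 31.9 FPKM against 30.2 FPKM. Mycn had a fold of 0.076 and thus lay near the middle of all tested genes. Myc levels were low for this list: only Polr1e was lower in the control.

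Among genes of RNA polymerase I transcription, 5 of 7 were above 0, with a median fold of 0.10. The 4 subunits of the enzyme differed in sign among themselves. Polr1a, the largest, catalytic subunit, was at 50.2 FPKM against 36.6 FPKM, a fold of 0.44. Polr1e, a subunit of the enzyme's accessory subcomplex, was at 5.90 FPKM against 4.67 FPKM. Polr1b, the second largest subunit, was at 21.8 FPKM against 22.9 FPKM, and Polr1c, a subunit shared with RNA polymerase III, at 82.4 FPKM against 90.7 FPKM. Summed over the 4 subunits, the KD had 160.3 FPKM and the control 155 FPKM. Ubtf, the factor that binds ribosomal DNA and helps recruit the polymerase, had almost the same value in both, 64.2 FPKM against 64.0 FPKM. Tcof1, the treacle protein that works with it, was at 57.0 FPKM against 52.96 FPKM. Mybbp1a, a nucleolar Myb-binding protein, was at 114 FPKM against 95.5 FPKM, a fold of 0.26.

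Polr1a, with the lowest p of the members, lies on chromosome 6 (71858795 to 71935182 in mm9), a chromosome whose genes were higher in general. There 84.5% of 309 tested rows at 10 FPKM or more lay above 0, with a median fold of 0.25. Nop2 is the other member on that chromosome. Chromosome 10, which carries Ddx21 and Utp20, was lower in general, with a median of -0.21 over 342 such rows. Without the 4 members on these chromosomes, 27 of 33 members were above 0 and the median was again 0.15. The part of the chromosomes in the folds of these 4 genes was not tested.

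The group of box C/D snoRNPs, the particles that place 2'-O-methyl groups on ribosomal RNA, held 4 members. All 4 were above 0, with a median of 0.25. Nhp2l1, which binds box C/D snoRNAs, was counted with the further small subunit genes below and had a fold of -0.048. Fbl, fibrillarin, the methyltransferase of the particle, was at 293 FPKM against 226 FPKM. Its fold of 0.37 had a p of 0.101 in the authors' deposited table. Nop56, a scaffold of the same core, was at 217 FPKM against 184 FPKM, and its partner Nop58 was at 258 FPKM against 248 FPKM. Of Fbl, Nop56 and Nop58, the most abundant per length was Nop58 in the control and Fbl in the KD. Nolc1, a nucleolar phosphoprotein that binds both snoRNP classes, was at 58.1 FPKM against 47.9 FPKM.

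Box H/ACA snoRNPs, which convert uridines to pseudouridines, gave 2 of 3 genes above 0 and a median of 0.15. Dkc1, dyskerin, the pseudouridine synthase itself, was at 81.5 FPKM against 83.3 FPKM. Of the other core proteins, Nhp2 was higher, at 103 FPKM against 85.0 FPKM, and so was Gar1, at 66.7 FPKM against 59.9 FPKM. Nop10, also of this core, was counted with the further snoRNP genes below and had a fold of -0.24. The differences between the folds of these core genes were not tested.

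**Figure D2:**
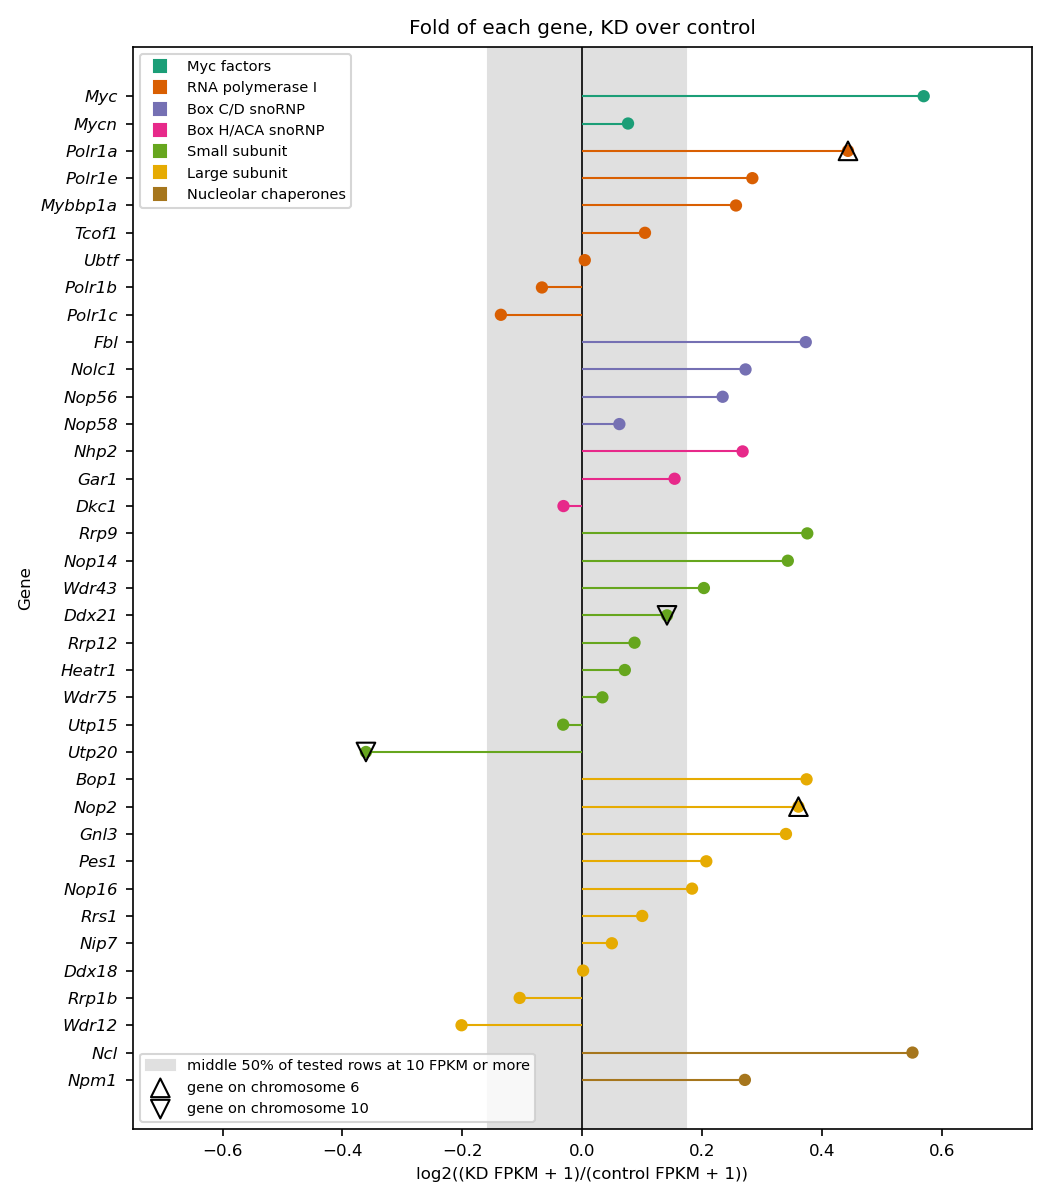
Fold of each of the 37 genes on the scale log2((KD FPKM + 1)/(control FPKM + 1)), grouped and coloured by role; the grey band spans the quartiles, -0.16 to 0.17, of tested rows with a mean of at least 10 FPKM. Triangles mark the members on chromosomes 6 and 10; Myc and Ncl are farthest right and Utp20 is farthest left.

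Small subunit assembly genes were above 0 in 7 of 9 cases, and their median of 0.087 was the lowest of the role groups. Rrp9, a protein of the U3 snoRNP that guides early cleavage, was at 49.8 FPKM against 38.2 FPKM, and Nop14, a subunit of the small subunit processome, at 71.1 FPKM against 55.9 FPKM. Wdr43 and Wdr75, proteins of the subcomplex that joins the nascent precursor first, were at 75.7 against 65.6 FPKM and at 73.3 against 71.6 FPKM. Heatr1, another protein of that subcomplex, was at 40.7 FPKM against 38.7 FPKM, and Utp15, also of it, at 21.9 FPKM against 22.4 FPKM. The 4 proteins of this subcomplex thus had folds between -0.032 and 0.20. Ddx21, an RNA helicase of the nucleolus, was at 77.3 FPKM against 70.0 FPKM, and Rrp12, a factor of pre-ribosome export, at 21.0 FPKM against 19.7 FPKM.

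Utp20, a large scaffold protein of the small subunit processome, had the lowest fold of all members. It was at 34.9 FPKM in the KD against 45.2 FPKM for the control, a fold of -0.36 with a p of 0.104 in the authors' deposited table. Of the 37 members it was the only one below -0.3, and it lies on chromosome 10 (88209351 to 88289559 in mm9).

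Of the large subunit assembly genes 8 of 10 were above 0, with a median of 0.14. Pes1, Bop1 and Wdr12 form the PeBoW complex, which is needed to process the internal spacer before the large ribosomal RNA. Bop1 was at 32.4 FPKM against 24.7 FPKM and Pes1 at 59.0 FPKM against 51.0 FPKM, whereas Wdr12 was at 43.5 FPKM against 50.1 FPKM. Wdr12 therefore stood level with Pes1 in the control and below it in the KD, although neither gene was called. Nop2, a methyltransferase of the large ribosomal RNA, was at 51.6 FPKM against 39.96 FPKM, and Gnl3, the nucleolar GTPase nucleostemin of stem cells, at 111 FPKM against 87.3 FPKM. The other members of the group differed less. Nop16 was at 26.8 FPKM against 23.5 FPKM, Rrs1 at 47.5 against 44.3 FPKM, and Nip7 at 35.4 against 34.2 FPKM; all 3 are assembly factors of the large subunit. Ddx18, an RNA helicase, had nearly equal values of 94.7 FPKM and 94.6 FPKM, and Rrp1b, a nucleolar protein, was at 27.7 FPKM against 29.9 FPKM.

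The most abundant members were the multifunctional nucleolar proteins. Ncl, nucleolin, which binds ribosomal RNA and chromatin, was at 1036 FPKM against 707 FPKM, the largest fold after Myc at 0.55. In the authors' deposited table its p was 0.155 and its q 0.869. Npm1, nucleophosmin, a chaperone of histones and ribosomal proteins, was at 2184 FPKM against 1810.0 FPKM, a fold of 0.27. These 2 genes held much of the summed level of the list, which was 5729 FPKM for the KD against 4761 FPKM for the control. Without them the sums were 2509 FPKM and 2244 FPKM. Npm1 has processed copies in the mouse genome, and how reads that match several places were divided is not stated, so its level is uncertain.

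Fold and level were only loosely related across the members, with a Pearson r of 0.16 and a Spearman rho of 0.12 between log2 mean level and fold. These are 37 genes of the same libraries and not independent points. The order of the members by level was nearly the same in both conditions, with a Spearman rho of 0.98. By level, the 2 members under 10 FPKM were both above 0. The 6 members between 10 and 30 FPKM were split 3 and 3, where 48.9% of tested rows were above 0. Between 30 and 100 FPKM 19 of 23 members were above 0. Tested rows at 30 to 100 FPKM were above 0 in 55.4% of cases. The 6 members at 100 FPKM or more were all above 0, where tested rows were above 0 in 56.9% at 100 to 300 FPKM and in 43.9% at 300 FPKM or more. The latter rows include most of the ribosomal protein genes described below.

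**Figure D3:**
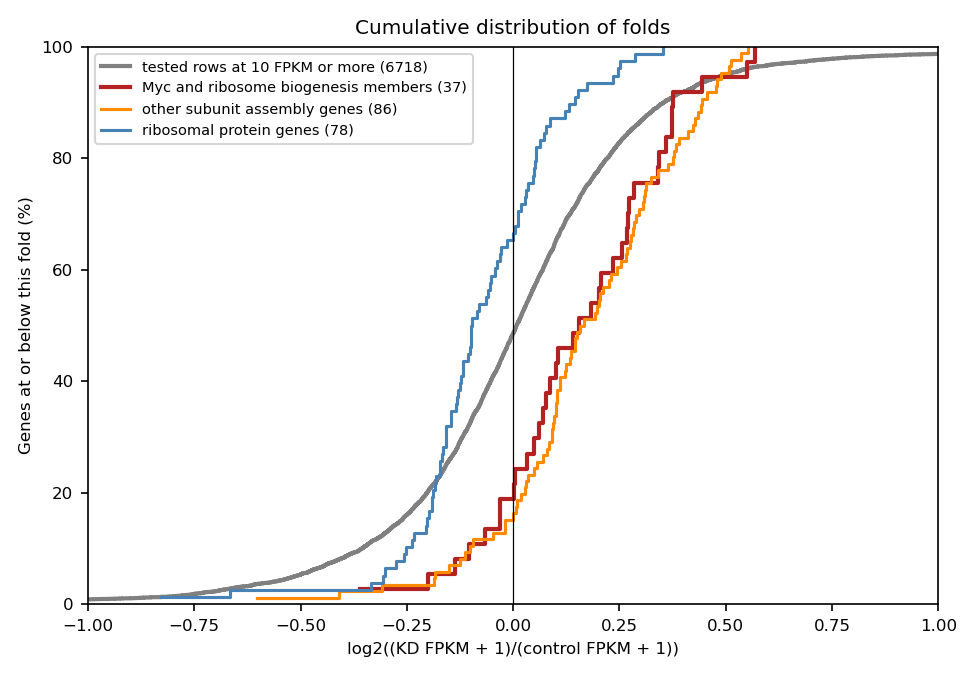
Percent of genes at or below each fold for the 37 members, for 86 other genes of small and large subunit assembly, for 78 ribosomal protein genes and for the 6718 tested rows with a mean of at least 10 FPKM. The lines of the members and of the other assembly genes lie to the right of the grey line over most of the range, with medians of 0.15 and 0.16. That of the ribosomal protein genes lies mostly to the left of the grey line above its lower end, with a median of -0.098. Tested rows at 300 FPKM or more, where most ribosomal protein genes lie, had a median of -0.053 and are not drawn apart. Those rows include the ribosomal protein genes at that level and are not a separate background.

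Other genes of ribosome assembly, taken from lists that do not hold the members, gave values close to those of the members. Of 42 further small subunit genes 34 were above 0 with a median of 0.17, and of 44 further large subunit genes 38 were above 0 with a median of 0.16. None of these was called in either direction in the authors' deposited table, where 0.963% of tested rows were called higher and 0.187% lower. At an unadjusted Cuffdiff p under 0.05, 2 small subunit genes and 5 large subunit genes were higher and 1 large subunit gene was lower in the authors' deposited table. Of all tested rows 6.1% were higher and 2.78% lower at that p. Brix1, which binds the early large subunit precursor, was at 56.4 FPKM against 38.1 FPKM, a fold of 0.55. Bms1, a GTPase of the small subunit processome on chromosome 6, was at 43.8 FPKM against 31.1 FPKM, and Esf1, another small subunit factor, at 33.2 FPKM against 23.6 FPKM. Emg1, a methyltransferase of the small subunit RNA on chromosome 6, was at 135 FPKM against 100.4 FPKM, and Nhp2l1, which binds box C/D snoRNAs, at 201 FPKM against 208 FPKM. Of the abundant large subunit factors, Eif6, which keeps the subunits apart, was at 139 FPKM against 112 FPKM and Wdr74 at 162 FPKM against 145 FPKM. The lowest was Wdr18, a partner of Las1l on chromosome 10, at 29.0 FPKM against 44.6 FPKM. Members and these genes together had 102 of 123 folds above 0, with a range of -0.60 to 0.57.

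Protein components of the cytosolic ribosome lay mostly below 0. Of 78 cytosolic ribosomal protein genes 27 were above 0 and 51 below, with a median of -0.098. Most of them were at 300 FPKM or more, where 43.9% of tested rows lay above 0 with a median of -0.053. Those 239 tested rows include these same genes, so they are not a separate background. Of the 78 genes 1 was called lower, against 0.187% of all tested rows. This was Rpl37a, at 771 FPKM against 1369 FPKM, for which the authors' deposited table has q = 0.0352. Rps15 on chromosome 10 was at 1850.0 FPKM against 2934 FPKM, without a call. Of the abundant genes, Rps28 was at 3148 FPKM against 3123 FPKM and Rps12, on chromosome 10, at 3003 FPKM against 3699.7 FPKM. A second gene of the list, Rps15, was lower at an unadjusted Cuffdiff p under 0.05 in the authors' deposited table, which makes 2 of 78 with Rpl37a against 2.78% of tested rows. Mitochondrial ribosomal protein genes were above 0 in 56 of 74 cases, with a median of 0.077, no call and none at an unadjusted Cuffdiff p under 0.05 in the authors' deposited table. The largest folds of that list were those of Mrps21, at 60.8 FPKM against 37.3 FPKM, and Mrps6, at 27.2 FPKM against 18.4 FPKM. Mrpl52 was at 164 FPKM against 153 FPKM and Mrpl42, on chromosome 10, at 115 FPKM against 164 FPKM. A difference between the assembly and the ribosomal protein lists was not tested.

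Noncoding host genes of small nucleolar RNAs had the lowest median of the lists examined. These genes carry snoRNAs in their introns, and their spliced transcripts are mostly short-lived. Of 10 such genes 9 were below 0, with a median of -0.65 and a range of -0.88 to 0.0013. None was called. An unadjusted Cuffdiff p under 0.05 was found in the authors' deposited table for 3 of the 10, all lower, against 2.78% of tested rows. These were Snhg11, at 13.2 FPKM against 23.2 FPKM, Snhg5, at 37.3 FPKM against 60.9 FPKM, and Snhg8, at 85.0 FPKM against 142 FPKM. Snhg3, at 94.3 FPKM against 153 FPKM, and Snhg4, at 8.69 FPKM against 16.8 FPKM, did not reach that p. Snhg1, the most abundant, was unlike these, at 518 FPKM in both conditions. Rows of 3 of the 10 genes carried further symbols, and without them the median was -0.69.

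**Figure D4:**
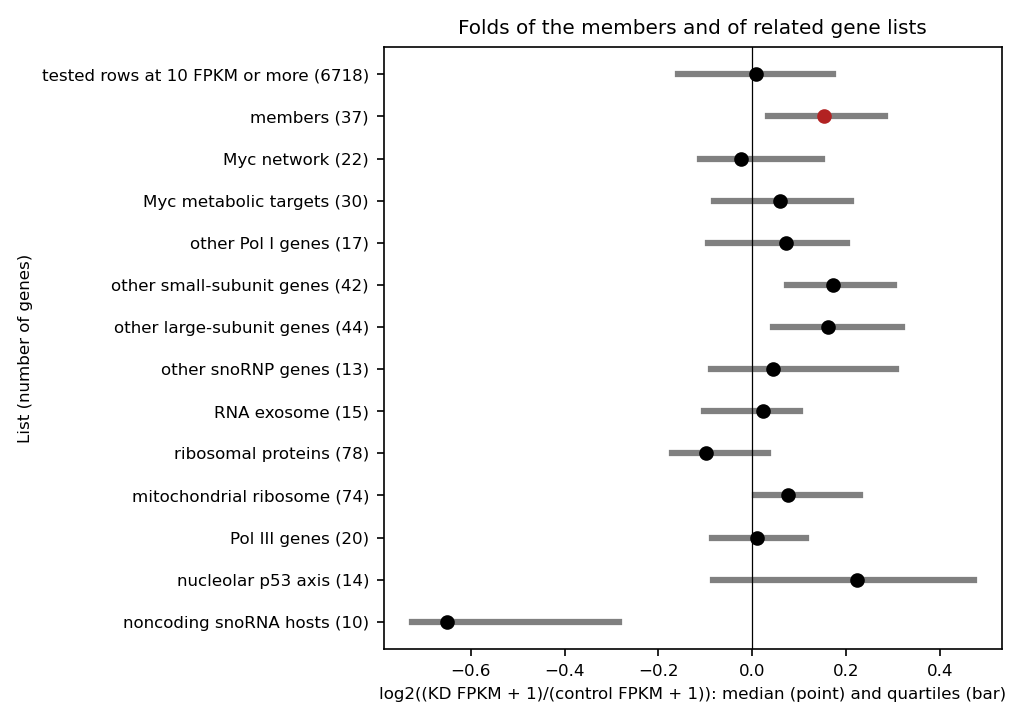
Median fold (points) and quartiles (bars) of the members, of 12 related gene lists and of the tested rows with a mean of at least 10 FPKM, with the number of genes in brackets. The members, the further small and large subunit genes and the mitochondrial ribosome have lower quartiles above 0, and the noncoding snoRNA hosts have a median of -0.65.

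The partners of Myc and its metabolic targets had medians near 0. In the Myc network, which holds Max, the Mxd antagonists and coactivators, 10 of 22 genes were above 0 and none was called. Their median was -0.023 (0.025 with scaling to total FPKM). At an unadjusted Cuffdiff p under 0.05 the authors' deposited table holds 1 of the 22 as higher, against 6.1% of tested rows. Ruvbl1, an ATPase of chromatin and snoRNP assembly complexes on chromosome 6, was at 75.4 FPKM against 52.1 FPKM. Its relative Ruvbl2 was at 145 FPKM against 134 FPKM, and Mxd3, a Max-binding antagonist, at 4.60 FPKM against 6.30 FPKM. Wdr5, a chromatin cofactor of Myc, was at 123 FPKM against 129 FPKM. Of 30 metabolic and growth targets 20 were above 0 with a median of 0.060. Ccnd2, cyclin D2, also on chromosome 6, was the only gene of that list called, where 0.963% of tested rows were called higher. It was at 7.12 FPKM against 1.17 FPKM, and its q in the authors' deposited table was 0.00815. Ldha, lactate dehydrogenase, was at 289 FPKM against 426 FPKM, and Eif4a1, a translation initiation helicase, at 1147 FPKM against 1127 FPKM. Hspe1, a mitochondrial chaperonin, was at 738 FPKM against 741 FPKM. At an unadjusted Cuffdiff p under 0.05 the authors' deposited table holds 2 of these 30 targets as lower, against 2.78% of tested rows. They were Ldha and Paics, an enzyme of purine synthesis (193 FPKM against 282 FPKM).

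The remaining parts of the pathway lay near 0 or were mixed. Further genes of RNA polymerase I transcription had 9 of 17 folds above 0 and a median of 0.072. Cd3eap, a subunit, was at 13.1 FPKM against 9.44 FPKM. Polr2e, on chromosome 10, a subunit shared by all 3 polymerases, was at 174 FPKM against 231 FPKM. Polr2f, also shared by them, was at 102 FPKM against 76.8 FPKM, and Polr1d, shared with RNA polymerase III, at 113 FPKM against 118 FPKM. Further snoRNP genes were above 0 in 9 of 13 cases with a median of 0.044, and genes of the RNA exosome, which trims ribosomal RNA ends, in 8 of 15 with a median of 0.023. Both medians are close to 0, and that of the exosome was -0.025 without rows of several symbols. Among the snoRNP genes Nop10, of the H/ACA core, was at 118 FPKM against 139 FPKM and Tert, the catalytic subunit of telomerase, at 4.21 FPKM against 6.05 FPKM. Znhit3 and Znhit6, assembly factors of box C/D particles, were at 25.7 against 20.6 FPKM and at 13.5 against 9.49 FPKM. Among the exosome genes Dis3, its nuclease, was at 33.5 FPKM against 47.8 FPKM. The exosome subunits Exosc2, Exosc5 and Exosc6 were at 43.0 against 37.6 FPKM, at 83.3 against 89.5 FPKM and at 189 against 186 FPKM. Genes of RNA polymerase III were split 10 and 10. None of these lists had a call. At an unadjusted Cuffdiff p under 0.05 the authors' deposited table holds 2 of the 20 genes of RNA polymerase III. Both were lower, against 2.78% of tested rows, and no gene of the other lists reached that p. The 2 were Polr3b, on chromosome 10, at 23.4 FPKM against 35.2 FPKM, and Polr3gl, at 8.69 FPKM against 15.3 FPKM. Maf1, a repressor of the enzyme, was at 40.9 FPKM against 35.7 FPKM and Gtf3c2, a subunit of its factor TFIIIC, at 40.6 FPKM against 48.2 FPKM. In the list of the p53 axis that responds to nucleolar stress 10 of 14 genes were above 0 with a median of 0.22 and no call. At an unadjusted Cuffdiff p under 0.05 the authors' deposited table holds 2 of the 14 as higher, against 6.1% of tested rows. These were the p53 target Ccng1, at 108 FPKM against 63.6 FPKM, and Mdm2, the ligase that degrades p53, at 72.2 FPKM against 43.8 FPKM. Cdkn2a, which encodes the Mdm2 inhibitor ARF, was at 12.3 FPKM against 5.91 FPKM and did not reach that p. Rpl11, a ribosomal protein that can bind Mdm2, was at 1323 FPKM against 1575 FPKM, and Rpl23, another, at 978 FPKM against 969.8 FPKM.

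Promoter sequences were examined for the E-box that Myc binds with Max. RefSeq promoters on GRCm38.p6 were matched by symbol for 31 of the 38 genes. The 31 include Noc2l, for which no level is given here. Myc, Fbl, Npm1, Bop1, Rrp12, Rrs1 and Tcof1 had no promoter entry. The search used CACGTG, which reads the same on both strands, in the 250 bases before each start site. It was found in 1 of 31 member genes (3.23%), against 6.86% of 27025 genes of the promoter table and 11.1% of 5276 genes from tested rows at 10 FPKM or more. The gene was Nop2, shown here because it is the one match, at chr6:125131783-125131868 on the plus strand with the motif in capitals.
Nop2: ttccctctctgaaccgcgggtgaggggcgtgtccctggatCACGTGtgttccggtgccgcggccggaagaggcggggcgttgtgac
The motif ends 54 bases before the start site. With the first 50 bases of the transcripts included, 5 of 31 member genes (16.1%) held CACGTG, against 8.09% of all genes and 13.3% of genes from tested rows at 10 FPKM or more. These 5 genes were Nop2, Mybbp1a, Pes1, Wdr43 and Utp20. Of these 5 genes 4 were above 0, with a median fold of 0.21 and a range of -0.36 to 0.36. They include the lowest member, Utp20 on chromosome 10.

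The last 100 bases before the start site are shown for the highest and the lowest folds among members with a promoter entry, a choice made after their values were seen. Capitals mark the looser E-box form CANNTG, which contains CACGTG. Ncl lies at chr1:86359456-86359555 on the minus strand, Polr1a at chr6:71908953-71909052 on the plus strand and Utp20 at chr10:88826815-88826914 on the minus strand.
Ncl: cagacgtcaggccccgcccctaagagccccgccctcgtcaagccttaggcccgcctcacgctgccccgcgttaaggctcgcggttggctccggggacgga
Polr1a: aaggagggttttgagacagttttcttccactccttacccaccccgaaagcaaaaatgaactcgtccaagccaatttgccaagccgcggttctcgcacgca
Utp20: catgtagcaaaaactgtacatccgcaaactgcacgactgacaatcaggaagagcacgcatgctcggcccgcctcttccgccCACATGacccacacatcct
The stretch of Ncl is 72% G and C, that of Polr1a 51% and that of Utp20 55%. CANNTG stands in that of Utp20 and in neither of the others.

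Markers of extraembryonic endoderm were higher in the KD, and those of feeder fibroblasts in part. None of 10 ES cell markers was called or had an unadjusted Cuffdiff p under 0.05 in the authors' deposited table, and 6 lay above 0 and 4 below with a median fold of 0.075. Pou5f1 was at 1078 FPKM against 1036 FPKM, Dppa5a at 2721 against 2552 FPKM, Sox2 at 216 against 257 FPKM and Fgf4 at 72.6 against 92.5 FPKM. Of 14 tested markers of extraembryonic endoderm 12 were called higher in the authors' deposited table, against 0.963% of all tested rows, and the summed level of all 17 was 723 FPKM for the KD against 127 FPKM for the control. Col4a1 and Col4a2, collagens of basement membranes, were at 109 against 10.9 FPKM and at 63.0 against 6.06 FPKM, and Sparc, a matrix protein, at 249 against 64.2 FPKM. Of 9 tested feeder fibroblast markers 2 were called higher, Bgn (13.3 against 2.05 FPKM) and Tnc (16.3 against 2.66 FPKM), against the same 0.963%. The other 7 were not called, and Pdgfrb was at 2.57 FPKM against 2.73 FPKM. At an unadjusted Cuffdiff p under 0.05 the authors' deposited table holds 6 of the 9 as higher, against 6.1% of tested rows. Of the 8 feeder markers with at least 1 FPKM in either condition 7 were above 0, with a median of 1.08. The summed level of all 13 was 51.4 FPKM for the KD against 16.0 FPKM for the control. Lum was listed at 0 in both conditions, and Fap, Afp and Ttr were listed at 0 in the control. In bulk RNA, a changed number of cells of a type and a changed level per cell cannot be told apart. The part of these other cells in the folds of the members was not tested.

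Some rows may share reads with neighbours, since the use of strand is not stated. The locus of Nop16 overlapped that of Higd2a (99.0 FPKM on average), that of Gnl3 overlapped Spcs1 (58.6 FPKM) and that of Nop56 overlapped Idh3b (82.3 FPKM). Polr1c overlapped Xpo5 (43.6 FPKM) and Nhp2 overlapped Rmnd5b (34.1 FPKM). Polr1e, itself at a mean of 5.28 FPKM, overlapped Fbxo10 (4.09 FPKM). Depth per library is not stated. Among single-transcript genes with low levels, the product of FPKM and length in kb was most often 0.033 for the control. For each member the median length of its coding transcripts was used. If 0.033 is the worth of 1 fragment, the least abundant member, Polr1e, rests on about 226 control fragments and Myc on about 322. Counting error alone would then be 6.65% and 5.58%, while the spread between clones or cultures was not measured.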

How the data were processed

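RNA sequencing of total RNA from 1 control and 3 KD libraries was processed by the authors with TopHat, Cufflinks and Cuffdiff on mm9, per the submitters' processing notes. For versions, annotation and library scaling, nothing is stated in the labels. The deposited table gives 1 FPKM per gene for a condition named control and 1 for a condition named treated, per the file headers; treated was taken as the KD, the other condition in the labels. The deposited p-value and q-value are those of Cuffdiff, and the authors' mark was used as the call. Adjusting the p of the 15477 tested rows by Benjamini-Hochberg gave the deposited q with a largest difference of 5.2e-07. As the control is 1 library, these p-values hold no spread measured between control cultures.

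Folds used a pseudocount of 1 FPKM, which understates changes of low genes. Other lists used genes with at least 1 FPKM in either condition and left out the members. Coordinates are as deposited. The code was tested on simulated data. Members and lists were chosen with earlier results of these data known, so their counts are descriptions and not independent support. All 38 listed genes were to be named, with the 2 most abundant and the 2 largest absolute folds of each other list; Mdm2, Paics, Snhg5, Snhg8, Pdgfrb, Fap, Lum, Afp, Ttr and the overlapping genes were named after their values were seen. Python 3.11.15 with pandas 2.3.3 was used. Alternatives covered the pseudocount, scaling, row choice, minimum level, chromosomes 6, 10 and Y, and the motif.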

Additional observations from a re-analysis of the deposited data

How the results depend on the processing

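The number of members above 0 was 28 to 32 of 37 under the other pseudocounts, scalings and row choices, and their median fold lay between 0.14 and 0.20. No member was called at q under 0.1 or at an unadjusted p under 0.05 in the authors' deposited table, whose test was Cuffdiff. Signs changed for 4 genes close to 0. Centred on the median of tested rows, Ddx18 was at -0.0065 and Ubtf at -0.0037, and with upper quartile scaling they were at -0.0042 and -0.0014. With scaling to total FPKM, Dkc1 was at 0.018 and Utp15 at 0.016. No scaling moved all folds by more than 0.050. With a pseudocount of 5 Myc no longer had the highest fold, at 0.39 against 0.55 for Ncl and 0.41 for Polr1a. No median of a role group or other list moved by 0.1 or more under any alternative run, but medians near 0 changed in proportion or sign. With scaling to total FPKM the Myc network was at 0.025, small subunit members at 0.13, Myc metabolic targets at 0.11, further RNA polymerase I genes at 0.12, further snoRNP genes at 0.091, the exosome at 0.073, the mitochondrial ribosome at 0.13, RNA polymerase III at 0.055 and ribosomal proteins at -0.049. Without rows of several symbols the exosome was at -0.025 and further snoRNP genes at 0.096. Without chromosomes 6, 10 and Y the Myc network was at -0.052 and RNA polymerase III at 0.024, which was at 0.0017 and 0.0044 when centred and with upper quartile scaling. Without a minimum level, further RNA polymerase I genes were at 0.036. The looser motif CANNTG was found before the start of 51.6% of member genes, against 57.9% of genes from tested rows at 10 FPKM or more. Leaving out single clones could not be done on pooled values. No paired analysis was possible because the groups share fewer than 2 replicate numbers and each has 1 deposited value.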
